A study of Homo sapiens with 10 samples.

Results

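The genes described here carry out chromosomal DNA replication or control entry into it from G1, the phase of the cell cycle before DNA synthesis. They are 49 genes chosen by name for these functions, with earlier results of these data known. They comprise the origin recognition and licensing proteins, the MCM helicase and the factors that start it, and the sliding clamp and its loader. Further members are the single-strand binding protein, the polymerases and primase, and the enzymes that join Okazaki fragments or supply nucleotides. The last are 3 G1/S regulators and 3 chromatin proteins that act behind the fork. All array probes annotated to the 49 genes were taken, 61 probes for 48 of the 49. A probe was kept when its detection score reached 0.99 on at least 1 array. This left 53 probes for 44 genes, out of 14018 kept probes and 10596 genes in all. CCNE2, the E2-type cyclin partner of CDK2, had no annotated probe. ORC4, the licensing factor CDC6 and the catalytic polymerase subunits POLA1 and POLE had probes that were not detected on any array. Of the 44 genes, 43 were detected on all 10 arrays and MCM6 on 9, the exception being replicate 1 of the 6 h group.

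Total RNA of MDA-MB-435, an established melanoma cell line, was measured on 10 single-colour bead arrays, 2 for each of 5 groups. The groups were untreated cells, cells exposed to hepatocyte growth factor (HGF, the ligand of the receptor tyrosine kinase MET) for 1 h, 6 h or 24 h, and cells that had received by transduction integrin beta-4 (ITGB4), which pairs with the alpha-6 integrin to bind laminin. The series calls the duplicates biological. All 5 groups are the same cell line, the HGF dose and the vector are not given in the sources used here, and no group transduced with an empty vector is labelled, so that ITGB4 was compared with untreated cells.

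In a proliferating cell the origin recognition complex and CDC6 bring CDT1 and the MCM2 to MCM7 ring onto DNA during G1, and geminin (GMNN) blocks CDT1 once S phase has begun. CDC7 with DBF4, together with CDC45, the GINS complex and MCM10, then turns the loaded ring into a moving helicase, behind which PCNA, its loader RFC and the polymerases copy the strands. Many of these genes are transcribed in a wave before S phase, when E2F factors are released from the retinoblastoma proteins. In a bulk culture, a lower share of cells in S phase and less RNA per cell cannot be told apart.

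The E2F and CCAAT elements through which this wave is commonly described were looked for in the promoters of the genes, so that the sequences can be read beside the values. Promoter windows from RefSeq on GRCh38.p14, running from 250 bases before to 50 bases after an annotated start, were at hand for 43 of the 49 genes, with 57 windows in all. The E2F letters searched were TTTCCCGC, TTTCGCGC, TTTGCCGC and TTTGGCGC on both strands, and 2 of these forms can share bases when they meet head to head, as in MCM6. They occurred in 22 of the 57 windows (38.6%), against 3.31% of all 35116 windows of the same length. The share was 31.4% for windows of other replication genes and 9.3% for those of G2/M and mitosis genes used for comparison. Windows were at hand for 26 of the 34 other replication genes and for 33 of the 40 G2/M genes. CCAAT, on both strands, occurred in 56.1% against 34.6%, with 51.4% for the other replication genes and 72.1% for the G2/M genes. The letters TTTGAA or TTCGAA, the CHR element of many G2/M genes, occurred in 5.26% against 16.4% of all windows, with 11.4% for the other replication genes and 65.1% of the 43 windows of the G2/M genes. A match is a run of letters, not evidence of a bound factor.

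The 100 bases before the start, or a stretch of the same length that holds the matches, are shown for the 3 genes that changed between HGF times (RRM2, UHRF1 and MCM10) and for 5 others whose values are given below. They are written 5′ to 3′ on the strand of the gene, with the E2F and CCAAT letters of either strand in capitals. RRM2 lies on the plus strand (chr2:10122468-10122567), as do UHRF1 (chr19:4909401-4909500), MCM10 (chr10:13161433-13161532), CDT1 (chr16:88803689-88803788) and TYMS (chr18:657553-657652). E2F1 (chr20:33686386-33686485), PCNA (chr20:5126623-5126722) and MCM6 (chr2:135876504-135876603) lie on the minus strand.
RRM2: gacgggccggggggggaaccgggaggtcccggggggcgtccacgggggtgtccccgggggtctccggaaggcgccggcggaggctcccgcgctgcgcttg
UHRF1: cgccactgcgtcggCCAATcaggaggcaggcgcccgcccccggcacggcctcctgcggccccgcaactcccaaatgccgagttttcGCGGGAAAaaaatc
MCM10: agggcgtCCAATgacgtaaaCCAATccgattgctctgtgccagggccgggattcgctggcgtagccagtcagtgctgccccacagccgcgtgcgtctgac
E2F1: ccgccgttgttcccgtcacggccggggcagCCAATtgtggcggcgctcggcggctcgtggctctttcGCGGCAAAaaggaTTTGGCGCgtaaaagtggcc
CDT1: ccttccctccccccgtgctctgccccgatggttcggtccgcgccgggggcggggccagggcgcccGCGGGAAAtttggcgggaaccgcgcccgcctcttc
PCNA: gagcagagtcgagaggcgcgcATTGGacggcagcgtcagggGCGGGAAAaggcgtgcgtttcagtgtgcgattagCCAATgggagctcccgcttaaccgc
TYMS: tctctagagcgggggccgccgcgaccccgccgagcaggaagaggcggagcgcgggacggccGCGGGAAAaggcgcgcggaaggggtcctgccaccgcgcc
MCM6: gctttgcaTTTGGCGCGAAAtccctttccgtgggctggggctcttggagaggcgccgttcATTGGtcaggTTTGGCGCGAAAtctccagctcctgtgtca

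In the stretches shown, UHRF1 carries 1 run of E2F letters and 1 CCAAT, MCM10 carries 2 CCAAT and no E2F letters, and RRM2 carries neither. The whole window of this RRM2 start holds 1 CCAAT farther upstream, and that of its second annotated start holds 3. E2F1 holds 2 runs of E2F letters beside 1 CCAAT, and MCM6 holds 4 matches that overlap in pairs. Within the 44 measured genes, those with E2F letters in a window (18 genes) and those without (21 genes) had median log2 differences of 0.01 and -0.03 at 6 h against untreated cells, and of -0.06 and 0.01 at 24 h against 6 h. Both values lay near 0 in each case.

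**Figure D1:**
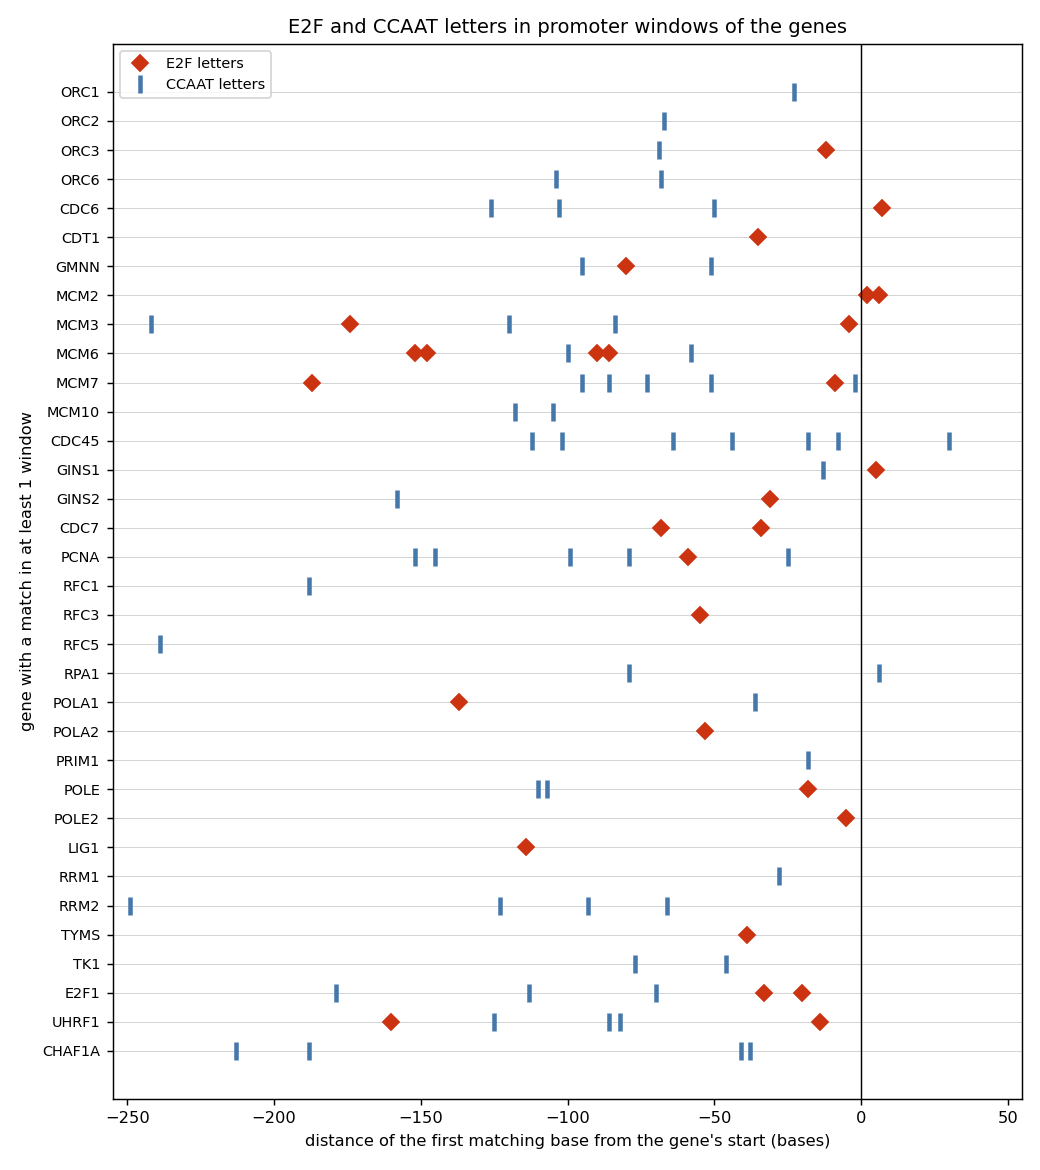
Position of the E2F and CCAAT letters in the promoter windows of the replication and G1/S genes, as the distance in bases of the first matching base from the annotated start (x axis), with 1 row for each gene that has a match. Each mark is a match on either strand, windows of all annotated starts of a gene share its row, and E2F letters are present in 21 of the 43 genes with a window.

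The cell line and the transduction were first checked on the arrays. Of the melanocyte genes examined, MITF, TYR, TYRP1, PMEL, MLANA, SOX10, GPR143 and RAB27A were detected on 10 of 10 arrays and S100B on 9, whereas the epithelial genes EPCAM, CDH1, KRT19, ESR1 and GATA3, the collagens COL1A1, COL1A2 and COL3A1, and PDGFRB, CD3E and CD14 were detected on none. Other genes of those lists were detected, KRT18, DCN, LUM and CD68 on 10 arrays, KRT8 on 9, and KRT5 and PTPRC on 5. ITGB4 had normalised signals of 6788.1 and 5022.9 on its own arrays and of 59.6 to 63.9 on the other 8, below the detection limit of 89.6. MET signals ran from 78.5 to 112.1, with detection on 6 arrays. Detected probes numbered 10226 to 11899 per array, and the detection scores of dim probes stood apart on 4 arrays, those of replicate 1 in untreated and in HGF-treated cells. Within a replicate number the untreated and HGF arrays are of 1 kind, and differences within replicates are given for the largest differences from untreated cells.

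Over the whole set, the replication genes did not move as a block. Values are log2 differences of group means of quantile-normalised signal, with the standard error of limma's moderated fit over all 10 arrays, and calls were made where the p-value, adjusted over all kept probes by the Benjamini-Hochberg method, was under 0.05. Of the 44 genes, 0 were called at 1 h, 6 h or 24 h of HGF or with ITGB4 against untreated cells, where the shares of all genes called were 0%, 2.22%, 0% and 0.00944%. An alternative fit had array background as a block, the name used here for the 4 arrays set apart by their detection scores. Among the untreated and HGF arrays this block equals replicate number. With it, RRM2 and UHRF1 were called higher at 6 h, where 427 of 10596 genes were called higher and 488 lower. The calls over all probes went from 267 to 1066. Between HGF times, 3 genes were called, all lower at 24 h than at 6 h (6.82% of the 44, against 4.68% of all genes called lower and 9.53% called in either direction). None was called at 6 h against 1 h, where 5.51% of all genes were called, or at 24 h against 1 h, where the share was 0%. With array background as a block, 5 genes were called at 6 h against 1 h, 4 higher and 1 lower. Of all genes, 665 were called higher and 810 lower there. At 24 h against 6 h 6 were called, all lower, where 969 of all genes were called higher and 892 lower. In either direction, the share of the 44 genes called with that block was below that of all genes in each of these comparisons. The calls over all probes went from 654 to 1690 and from 1165 to 2163. At an unadjusted p under 0.05, limma gave 4 of the 44 genes at 1 h (9.09%, against 15.4% of all genes), 5 at 6 h (11.4%, against 17.7%), 1 at 24 h (2.27%, against 6.36%) and 0 with ITGB4 (against 0.812%). Between HGF times it gave 6 at 6 h against 1 h (13.6%, against 23.5%), 8 at 24 h against 6 h (18.2%, against 23.9%) and 3 at 24 h against 1 h (6.82%, against 7.27%). Each share of the 44 genes was below that of all genes. An ordinary pooled-variance test called 0 of the 44 in each of the 7 comparisons. Over all 14018 kept probes it called 107 at 24 h against 6 h and 1 with ITGB4 against untreated cells. It called 0 of all probes in each of the other comparisons.

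The median log2 difference of the 44 genes was 0.06 at 1 h, 0.02 at 6 h and -0.07 at 24 h against untreated cells, beside 0.04, 0.00 and 0.01 over all genes. Within replicates 1 and 2 it was 0.10 and 0.01 at 1 h, 0.06 and -0.09 at 6 h, and -0.05 and -0.08 at 24 h. With ITGB4 it was 0.14 beside 0.00. None of these medians kept its sign when each array was left out in turn, with values from -0.36 to 0.30 over the 7 comparisons. Among the untreated and HGF groups, the highest group mean was in untreated cells for 7 genes, at 1 h for 16, at 6 h for 13 and at 24 h for 8. No single time held the highest mean for most of the genes.

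**Figure D2:**
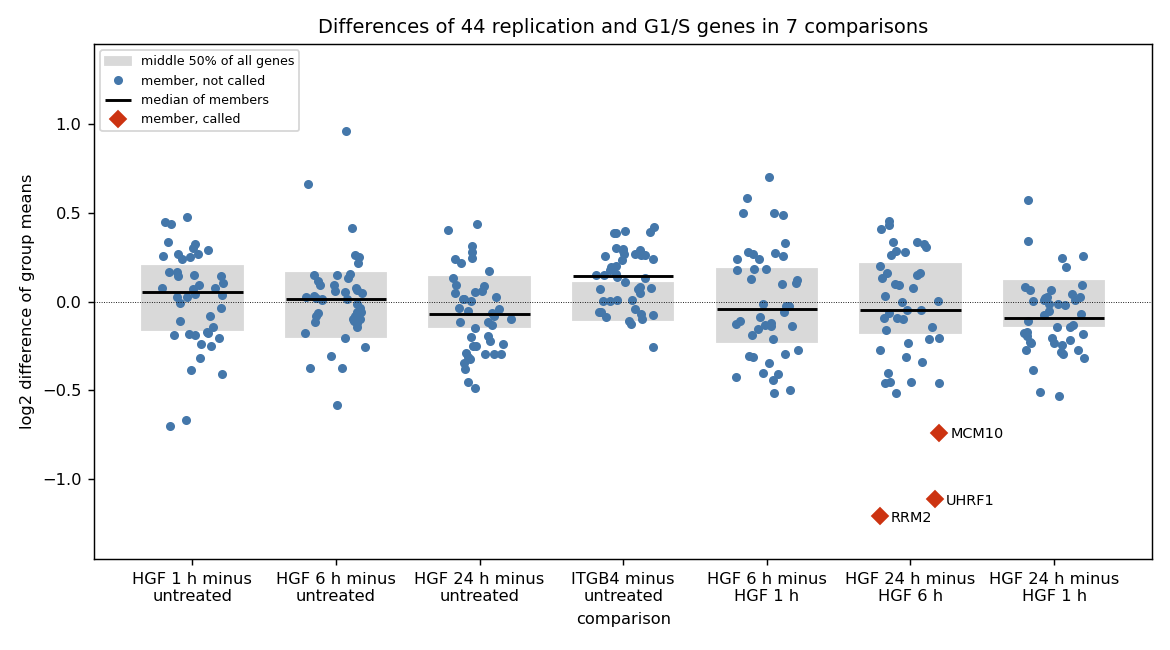
Log2 difference of group means (y axis) of the 44 measured replication and G1/S genes in the 7 comparisons (x axis), 1 point per gene, with a line at their median and a grey band over the middle 50% of all genes. The genes spread around 0 in each comparison, and the 3 called genes, all lower at 24 h than at 6 h, reach -0.74, -1.11 and -1.21.

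RRM2, UHRF1 and MCM10 had their highest HGF signals at 6 h and were lower at 24 h. RRM2 is the small subunit of ribonucleotide reductase, which makes deoxynucleotides and whose level limits the enzyme through the cell cycle. Its normalised signal was 171 and 186 in untreated cells (replicates 1 and 2), 177 and 257 at 1 h, 281 and 427 at 6 h, 122.5 and 184 at 24 h, and 219.8 and 178 with ITGB4. Both 6 h arrays were above all 8 others. From 6 h to 24 h RRM2 fell 2.31-fold (log2 difference -1.21 ± 0.25 SE, n = 2 per group, limma adjusted p = 0.011), with a difference of -1.20 in replicate 1 and -1.22 in replicate 2. From untreated cells to 6 h the difference was 0.96 ± 0.25 (adjusted p = 0.07), with 0.72 and 1.20 in the replicates, and the adjusted p was 0.0041 with array background as a block. A second RRM2 probe, detected on 1 of 10 arrays, gave 0.37 at 24 h against 6 h, the opposite sign, so that the change rests on the brighter probe.

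UHRF1, which reads hemimethylated DNA behind the fork and recruits the maintenance methyltransferase, had signals of 303 and 394 in untreated cells, 332 and 399.5 at 1 h, 492 and 606 at 6 h, 210.5 and 303 at 24 h, and 510.3 and 399.8 with ITGB4. The 6 h arrays were above the untreated, 1 h and 24 h arrays but not above both ITGB4 arrays. UHRF1 fell 2.16-fold from 6 h to 24 h (-1.11 ± 0.22, limma adjusted p = 0.0083), with -1.22 and -1.001 in the replicates. At 6 h against untreated cells the difference was 0.66 ± 0.22 (adjusted p = 0.14), with 0.70 and 0.62 in the replicates, and the adjusted p was 0.017 with array background as a block.

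MCM10, which helps to switch on the loaded helicase, had signals of 297 and 387 in untreated cells, 251 and 325 at 1 h, 378 and 429.8 at 6 h, 222 and 263 at 24 h, and 437 and 378 with ITGB4. The 24 h arrays were the 2 lowest of the untreated, 6 h and 24 h arrays, and the untreated and 6 h arrays overlapped. MCM10 fell 1.67-fold from 6 h to 24 h (-0.74 ± 0.19, limma adjusted p = 0.033), with -0.77 and -0.71 in the replicates, and at 24 h against untreated cells the difference was -0.49 ± 0.19 (adjusted p = 0.86), with -0.42 and -0.56 in the replicates. The number of the 44 genes called at 24 h against 6 h was 0 without replicate 2 of the 6 h group and 1 without replicate 1 of the 24 h group, where 308 and 918 of all probes were called in place of 1165. It was 1, UHRF1, in the value table that the authors normalised, with 994 of all probes, where RRM2 had an adjusted p of 0.066 and MCM10 of 0.074.

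**Figure D3:**
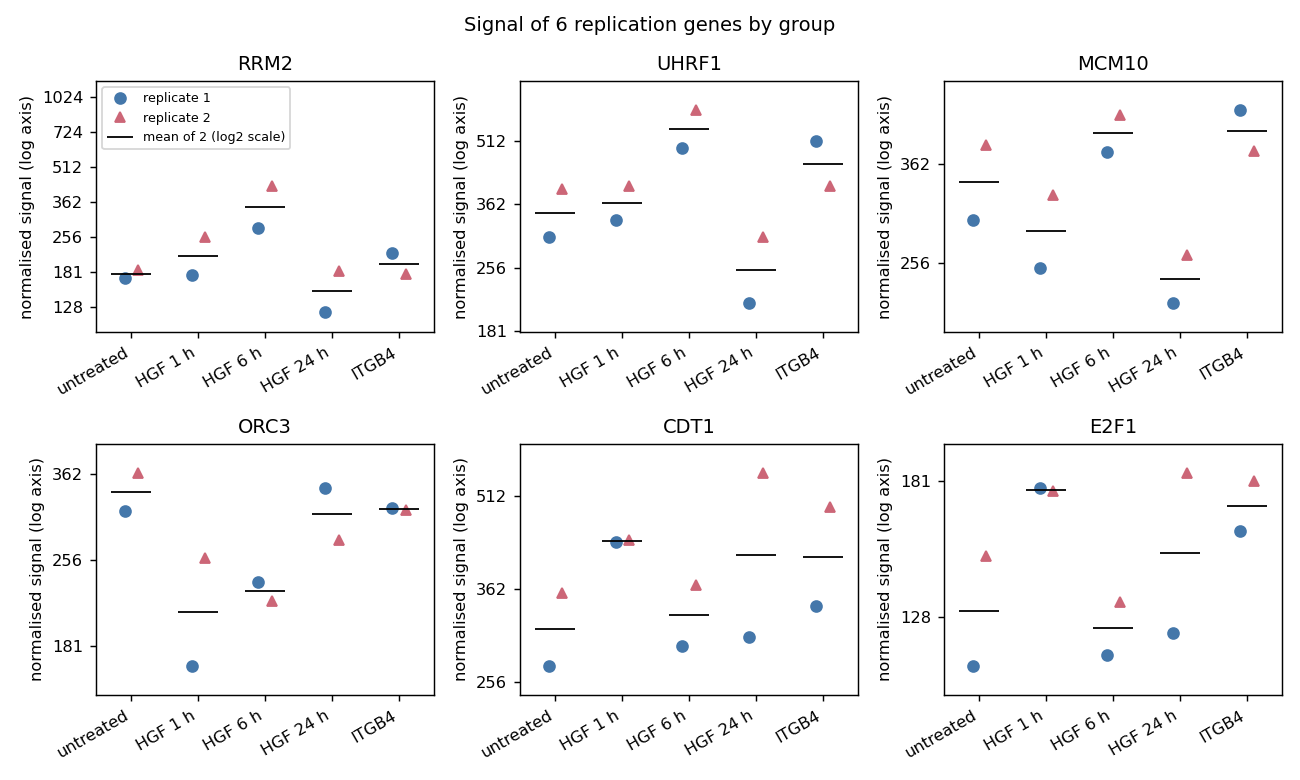
Normalised signal on each array (log axis, arbitrary intensity units) of 6 replication genes in the 5 groups, with a point for each of the 2 arrays and a line at the mean of their log2 values. The 6 h arrays of RRM2 lie at 281 and 427, above every other array, and the 24 h arrays of UHRF1 lie at 210.5 and 303.

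The 12 genes whose 24 h arrays both lay under both 6 h arrays (27.3%, against 21.3% of all genes) came from several roles. Besides the 3 called genes these were ORC2, ORC5, ORC6, GMNN, GINS1, RFC3, POLE2, FEN1 and CDK2. Geminin had signals of 1304 and 1397 in untreated cells, 1058 and 1411 at 1 h, 1527 and 1436 at 6 h, 1079 and 998 at 24 h, and 1465 and 1176 with ITGB4. Its difference at 24 h against 6 h, -0.51 ± 0.18, had an adjusted p of 0.11. In the other direction, ORC3, MCM3, MCM6, RFC4, RPA1 and POLD1 were higher on both 24 h arrays (6 genes, 13.6%, against 24.6% of all genes). Both 6 h arrays stood above the 6 untreated, 1 h and 24 h arrays for ORC5, GMNN, RRM2 and UHRF1 (4 genes, against 10.6% of all genes) and below them for MCM6 and RPA1 (2 genes, against 14.1%).

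Among the origin recognition subunits, ORC3 had signals of 312 and 364 in untreated cells, 167 and 259 at 1 h, 234 and 217 at 6 h, 343 and 278 at 24 h, and 316 and 313 with ITGB4. The 1 h and 6 h arrays lay below every other array. The differences from untreated cells were -0.70 ± 0.21 at 1 h (adjusted p = 0.20) and -0.58 ± 0.21 at 6 h (adjusted p = 0.17), and neither passed the test. Within replicates 1 and 2 they were -0.90 and -0.49 at 1 h, and -0.41 and -0.75 at 6 h. ORC2 and ORC5 differed by -0.46 ± 0.19 and -0.45 ± 0.17 at 24 h against 6 h (adjusted p = 0.17 and 0.14), the opposite sign to ORC3 at 0.45 ± 0.21.

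In licensing and its control, CDT1, which loads the MCM ring, had signals of 272 and 357 in untreated cells, 432 and 435 at 1 h, 293 and 368 at 6 h, 303 and 559 at 24 h, and 339.8 and 491 with ITGB4. Both 1 h arrays were above both untreated arrays, and the 24 h replicates were the farthest apart. E2F1, the transcription factor that drives S-phase genes, had 113 and 149.5 in untreated cells, 178 and 177 at 1 h, 116 and 133 at 6 h, 123 and 185 at 24 h, and 159.6 and 181 with ITGB4. Both were higher at 1 h on both arrays, by 0.48 ± 0.27 for CDT1 (adjusted p = 0.47) and 0.45 ± 0.21 for E2F1 (adjusted p = 0.37), and neither passed the test. Within replicates 1 and 2 the differences were 0.67 and 0.28 for CDT1, and 0.66 and 0.24 for E2F1. At 6 h against 1 h E2F1 differed by -0.51 ± 0.21 (adjusted p = 0.18). At 1 h against untreated cells 6 genes had both arrays above (13.6%, against 25.2% of all genes) and 8 had both below (18.2%, against 22.1%). The 6 were CDT1, RPA2, POLA2, POLD1, E2F1 and CHAF1A, and the 8 were ORC3, MCM6, CDC7, RFC1, RFC3, RPA1, PRIM1 and CDK2.

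None of the 6 MCM helicase genes was called. MCM4 had the largest difference among them at 24 h against 6 h, -0.45 ± 0.25 (limma adjusted p = 0.35), with -0.51 and -0.40 in the replicates and an adjusted p of 0.039 when array background was a block. MCM2 had signals of 2187 and 2891 in untreated cells, 2214 and 2967 at 1 h, 2040.0 and 2667 at 6 h, 2016 and 3385 at 24 h, and 2775 and 3385 with ITGB4. Its differences from untreated cells were 0.03, -0.11 and 0.05 at the 3 HGF times, each ± 0.25, less than the gap between its replicates. MCM6 lay close to the detection limit, at 119 and 129.9 in untreated cells, 115 and 103 at 1 h, 97.6 and 94.3 at 6 h, 100.3 and 102 at 24 h, and 137 and 125 with ITGB4. All 6 HGF arrays were below both untreated arrays, with a difference at 6 h of -0.37 ± 0.15 (adjusted p = 0.24), and of -0.28 and -0.46 in the replicates.

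CDC7, the kinase subunit that phosphorylates the MCM ring, had signals of 475 and 549 in untreated cells, 243 and 426 at 1 h, 471 and 432 at 6 h, 467 and 358 at 24 h, and 498 and 485 with ITGB4. All 6 HGF arrays were below both untreated arrays, and replicate 1 at 1 h was the lowest of the 10. The difference at 1 h was -0.66 ± 0.23 (adjusted p = 0.25), with -0.97 and -0.36 in the replicates. GINS2, a subunit of the GINS complex, had signals of 596 and 722 in untreated cells, 679 and 796 at 1 h, 608 and 717 at 6 h, 459.9 and 886 at 24 h, and 745 and 1004.5 with ITGB4. Its 24 h arrays were the lowest and the second highest of the 10.

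PCNA, the sliding clamp, had signals of 1205 and 1589.9 in untreated cells, 1267 and 1913 at 1 h, 1368 and 1742 at 6 h, 1053 and 1557 at 24 h, and 1338 and 1739 with ITGB4. Its differences from untreated cells ran from -0.11 at 24 h to 0.17 at 1 h (± 0.25), and the groups overlapped throughout. A second bright PCNA probe gave 0.06 at 1 h and 0.30 at 6 h, each ± 0.36. RFC3, a clamp loader subunit, differed by 0.50 ± 0.18 at 6 h against 1 h (adjusted p = 0.13) and by -0.46 ± 0.18 at 24 h against 6 h (adjusted p = 0.15). Of its 3 probes, 1 other gave 0.49 and -0.50 for these comparisons and the third gave -0.46 and 0.21.

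Among the enzymes of nucleotide supply, TYMS, thymidylate synthase, had signals of 776 and 1502 in untreated cells, 1089 and 1317 at 1 h, 1019.6 and 1301 at 6 h, 931 and 1259 at 24 h, and 1324 and 1576 with ITGB4. The untreated replicates were the lowest and the second highest of its 10 arrays, and its differences at the HGF times were 0.15, 0.09 and 0.00 ± 0.27. TYMS and TK1, thymidine kinase, both differed from RRM2 in that their 6 h arrays overlapped the untreated, 1 h and 24 h arrays. Of the polymerase genes, POLD1, the catalytic subunit of polymerase delta, differed by 0.34 at 1 h and 0.43 at 24 h against untreated cells, and PRIM2, the large primase subunit, by -0.37 at 6 h (adjusted p = 0.35). At 6 h against untreated cells, ORC2, ORC5, GMNN, RRM2 and UHRF1 were higher on both arrays (5 genes, 11.4%, against 20.8% of all genes) and ORC3, MCM6, CDC7, RPA1 and PRIM2 were lower (5 genes, against 26.7%). At 24 h against untreated cells 0 genes were higher on both arrays, where 15.1% of all genes were. ORC2, GMNN, MCM6, MCM10, CDC7, RFC3, POLE2, RRM1 and CDK2 were lower on both (9 genes, 20.5%, against 16.1%).

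With ITGB4, 34 of the 44 genes (77.3%, against 49.8% of all genes) had a mean above that of untreated cells, and none was called. The share was 73.9% for other G1/S regulators, 59.4% for other replication genes and 50% for the G2/M and mitosis genes. GINS2, RPA1, E2F1 and UHRF1 were higher on both arrays (4 genes, 9.09%, against 13.6% of all genes). GINS2 differed by 0.40 ± 0.26, E2F1 by 0.39 ± 0.21, UHRF1 by 0.39 ± 0.22 and TYMS by 0.42 ± 0.27, all with an adjusted p of 1. The median over the 44 genes was 0.26 in replicate 1 and 0.03 in replicate 2. Without replicate 1 of the untreated group, which also leaves only arrays with the same kind of detection scores, it was -0.04 in place of 0.14. With array background as a block it was -0.006, and in the authors' value table it was 0.09. The column of that table for ITGB4 replicate 2 did not follow the sample's scanner intensities, and which version belongs to the sample is not settled.

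The medians of the 44 genes differed more between the replicates than between the treatments. Replicate 2 was above replicate 1 in all 5 groups for 25 of the 44 genes (56.8%), against 13.4% of all genes. RFC1, the large clamp loader subunit, was lower in replicate 2 in all 5. The median log2 difference of replicate 2 over replicate 1 was 0.35 in untreated cells, 0.27 at 1 h, 0.23 at 6 h, 0.44 at 24 h and 0.17 with ITGB4, where the medians over all genes lay between 0.00 and 0.02. The share depended on the scaling but kept its direction. It was 29.5% against 9.34% of all genes when arrays were scaled to a common median, 38.6% against 11.5% in the authors' value table and 56.8% against 13.4% after normexp background correction.

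By role, the difference was present in 5 of the 6 MCM genes, all but MCM6, and in both FEN1, the flap endonuclease, and LIG1, the ligase of Okazaki fragments. The mean fold of replicate 2 over replicate 1 across the 5 groups was 1.49 for MCM5, 1.47 for TK1, 1.40 for RFC2, 1.38 for ORC1, 1.37 for PCNA and 1.37 for CDC45. It was 0.79 for DBF4 and 0.80 for RFC1. The widest gap was that of MCM5 at 24 h, 427 and 974.5. The G2/M and mitosis genes also had it, with 21 of 40 (52.5%), and the counts were 9 of 32 (28.1%) for other replication genes and 7 of 23 (30.4%) for other G1/S regulators. The spread between duplicates of the 44 genes, a median pooled SD of 0.25 log2 units from 0.08 (MCM6) to 0.49 (MCM5), stood beside a median of 0.18 for all genes. Array background moved with replicate number in the untreated and HGF groups and not in the ITGB4 group, and its part in the difference was not tested.

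**Figure D4:**
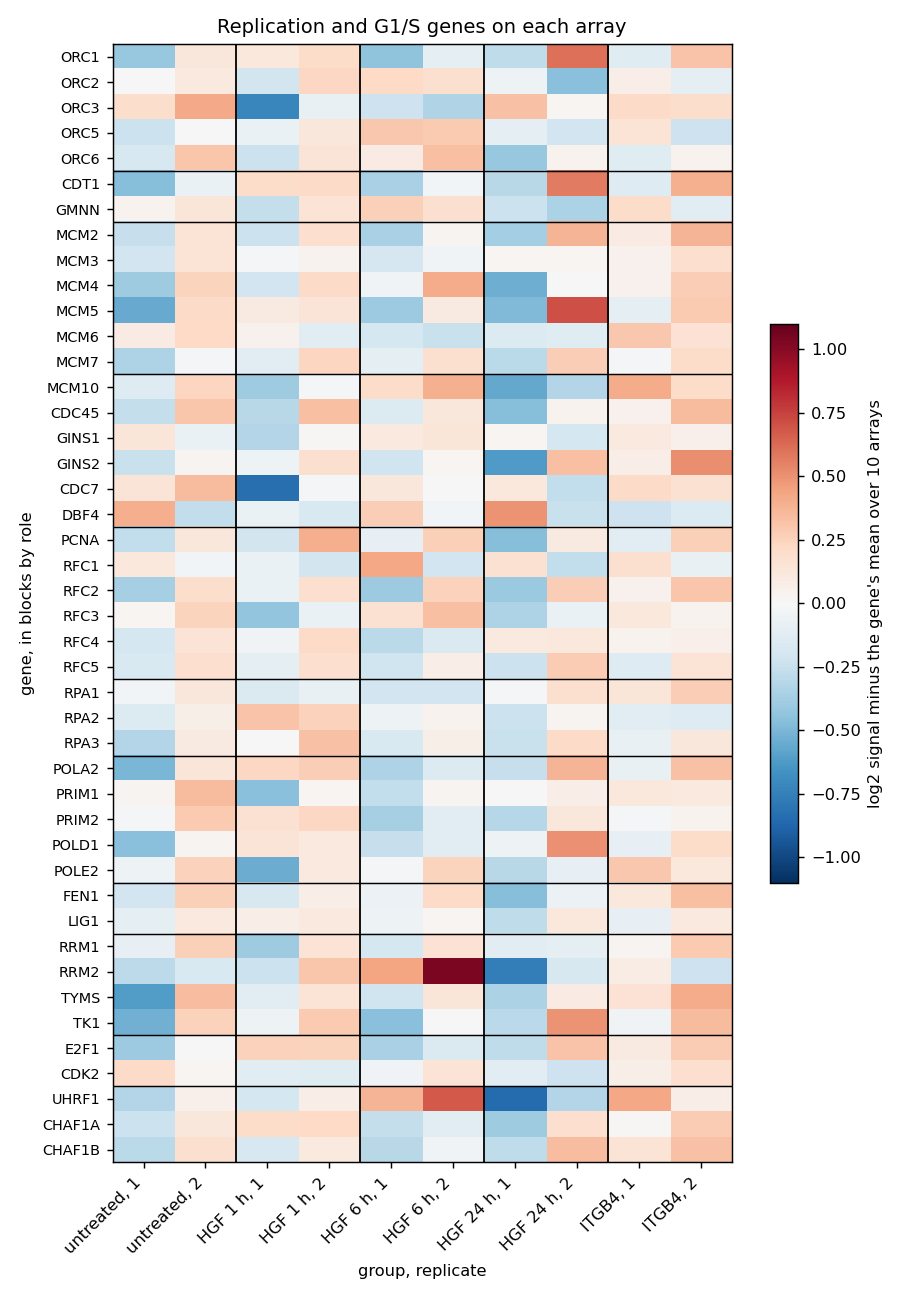
Log2 signal of each of the 44 genes (rows, in blocks by role) on each of the 10 arrays (columns, group and replicate), as the difference from the mean of that gene over all arrays. In the untreated and HGF groups the replicate 2 columns are mostly higher than the replicate 1 columns, for 40 of the 44 genes in untreated cells, 37 at 1 h, 36 at 6 h and 35 at 24 h.

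**Figure D5:**
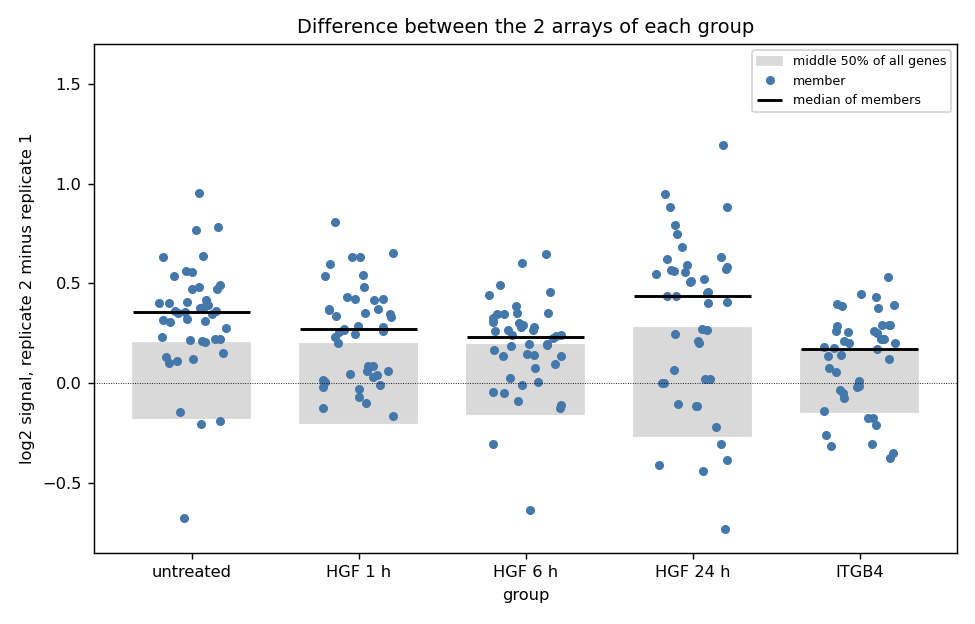
Difference of log2 signal between replicate 2 and replicate 1 (y axis) in each of the 5 groups (x axis), with a point for each of the 44 genes, a line at their median and a grey band over the middle 50% of all 10596 genes. The median of the 44 genes is 0.44 at 24 h and 0.17 with ITGB4, and that of all genes is near 0 throughout.

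Genes of the same pathways outside the 49 were counted with the same test. Of all genes, 2.61% were called higher and 2.90% lower at 6 h than at 1 h, 4.85% higher and 4.68% lower at 24 h than at 6 h, and 1.15% higher and 1.07% lower at 6 h than in untreated cells. Of 32 other measured replication genes, 2 were called higher at 6 h than at 1 h, TIPIN (0.73), a fork protection protein, and TOP1 (0.87), the topoisomerase that relaxes DNA ahead of the fork. From 6 h to 24 h 3 were called lower, TIPIN (-0.90), TOP1 (-0.73) and MCMBP, an MCM-binding protein. MCMBP was not well above background on either 24 h array and was at least 1.18-fold higher at 6 h (limma adjusted p = 0.036). No other replication gene was called in the remaining 5 comparisons.

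Of 23 other G1/S regulators, cyclin D1 (CCND1), the regulatory partner of CDK4 and CDK6, rose 2.45-fold at 6 h against untreated cells (limma adjusted p = 0.039) and fell from 6 h to 24 h (log2 difference -1.74, adjusted p = 0.004). RBL2, a retinoblastoma family repressor, took the opposite course, with -0.82 at 6 h (adjusted p = 0.038) and 0.85 from 6 h to 24 h. At 6 h against 1 h, CCND1 (1.62) and SKP2 (0.82), a ubiquitin ligase subunit that removes CDK inhibitors, were higher and the CDK inhibitor CDKN2D (-0.70) was lower. From 6 h to 24 h SKP2 (-1.03), the CDK inhibitor CDKN1A (-1.02) and TFDP1 (-0.93), the partner of E2F factors, fell along with CCND1, giving 4 called lower and 1 higher. Of the 40 G2/M and mitosis genes, 6 were called higher at 6 h than at 1 h, namely CENPE, CENPF, KIF11, NUF2, CKAP2 and KIF23, from 0.80 to 1.502, and 33 of the 40 (82.5%, against 47.4% of all genes) had a difference above 0. The median of the 40 in that comparison was 0.41, beside -0.04 for the replication and G1/S genes and -0.02 for all genes. Against untreated cells the median of the 40 was -0.19 at 1 h, 0.04 at 6 h and -0.05 at 24 h. At each of these times 0 of the 40 were called, where the shares of all genes were 0%, 2.22% and 0%. At 24 h against 1 h the median was 0.27, with 33 of the 40 above 0 (82.5%, against 46.9% of all genes) and 0 called. CDC25C, a phosphatase that activates CDK1, was the 1 G2/M gene called at 24 h against 6 h (0.74).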

How the data were processed

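MDA-MB-435 RNA was measured on 10 bead arrays, 2 per group. Groups and replicate numbers came from the sample labels. For each array the authors deposited a scanner table with the intensity of each probe (mean brightness of its beads, linear scale, neither background subtracted nor normalised), a detection score from 0 to 1, and bead numbers (array medians 26 to 32). The submitters' processing notes name BeadStudio 1.5.1.3. They also deposited a value table of intensities, background subtracted and rank-invariant normalised by the authors. Its column for ITGB4 replicate 2 was not a straight line of that sample's scanner intensities, as the other 9 were (largest residual 7751, Spearman correlation 0.968), so scanner values were used and the value table served as an alternative.

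From 24136 probes, 22 controls and 9 with missing intensities were set aside. Intensities were quantile normalised and brought to log2 without offset, and probes with a detection score of 0.99 or more on at least 1 array were kept (14018 of 24105, 58.2%). limma 3.58.1 in R 4.3.3 fitted 5 group means over 10 arrays (5 residual and 8.16 prior degrees of freedom). P-values were adjusted by Benjamini-Hochberg over all kept probes in each of 7 comparisons, called under 0.05. A gene with several kept probes was given by its brightest (725 of 10596 genes). The number of arrays limits the precision. The p-values rest on the spread between these duplicates, which limma moderates toward the spread over all kept probes.

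The genes, lists and rules were chosen with earlier results of these data known. Full values are given for genes called in any comparison, for the 2 largest non-overlapping differences in each direction against untreated cells, and for PCNA, MCM2, CDC6, E2F1, CCNE2, RRM2 and TYMS where measured. Alternatives were background correction (normexp), median scaling, detection filters, the value table with values under 16 set to 16, all probes of a gene averaged, an ordinary pooled-variance test, blocks for replicate number and array background, each array left out, and, added after seeing the data, a fit without the ITGB4 arrays. The main fit alone was tested on simulated data, for the comparison of 24 h with 6 h. Sequences are RefSeq's on GRCh38.p14.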

Additional observations from a re-analysis of the deposited data

Results flagged for a closer look

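The results below are differences between HGF times that passed limma's test of the difference itself (adjusted p under 0.05), given as log2 differences. Among the replication and G1/S genes they are RRM2 (-1.21), UHRF1 (-1.11) and MCM10 (-0.74), each at 24 h against 6 h. In the other replication genes they are TIPIN (0.73) and TOP1 (0.87) at 6 h against 1 h, and TIPIN (-0.90), TOP1 (-0.73) and MCMBP (a measured -0.71, with the 24 h arrays not well above background) at 24 h against 6 h. Both TIPIN and TOP1 thus differed in opposite directions in the earlier and the later interval, and these comparisons share the 6 h arrays.

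Among the other G1/S regulators they are CCND1 (1.62), SKP2 (0.82) and CDKN2D (-0.70) at 6 h against 1 h, and CCND1 (-1.74), SKP2 (-1.03), CDKN1A (-1.02), TFDP1 (-0.93) and RBL2 (0.85) at 24 h against 6 h. Among the G2/M and mitosis genes they are CENPE (1.502), CENPF (1.31), KIF11 (0.92), NUF2 (0.85), CKAP2 (0.84) and KIF23 (0.80) at 6 h against 1 h. CDC25C (0.74) is the last, at 24 h against 6 h, with detection on 1 of the 2 arrays at 6 h.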

How the results depend on the processing

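Of the single genes followed over all alternatives, RRM2, UHRF1, MCM10 and ORC3, none changed direction. The median of the 44 genes, near 0 as reported, changed sign under 2 or 3 of the 18 or 19 alternatives in each comparison. The number of the 44 genes called at 24 h against 6 h, 3 as reported, was 1 in the value table and 0 in the ordinary pooled-variance test, which called 107 of all probes in place of 1165, and it ran from 0 to 3 when each array was left out. With each array left out, RRM2 at 6 h against untreated cells ran from 0.66 to 1.26. CDC7 at 6 h against 1 h was 0.89 without replicate 2 of the 1 h group. RRM2 at 24 h against 6 h ran from -1.51 to -0.91, UHRF1 from -1.37 to -0.85 and MCM10 from -0.86 to -0.62. The reported differences are of intensities without background subtraction. With background correction (normexp), RRM2 differed by -1.64 and UHRF1 by -1.32 at 24 h against 6 h, in place of -1.21 and -1.11. Under median scaling they differed by -1.11 and -1.01. MCM10 lost its call under normexp (adjusted p = 0.075) and median scaling (0.10), and the cause was not tested. RRM2 lost its call when its probes were averaged (-0.42, adjusted p = 0.11). That value is the mean of its brighter probe (-1.21) and its second probe (0.37), which was detected on 1 array. That median ran from -0.12 to 0.24 at 1 h, from -0.20 to 0.16 at 6 h and from -0.04 to 0.30 with ITGB4, in each case lowest without untreated replicate 1 and highest without untreated replicate 2. It ran from -0.22 to 0.06 at 24 h, from -0.19 to 0.13 at 24 h against 6 h and from -0.36 to 0.040 at 24 h against 1 h, in each case lowest without replicate 2 of the 24 h group and highest without replicate 1. At 6 h against 1 h it ran from -0.21 under median scaling to 0.12 without replicate 2 of the 1 h group.

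The labels do not say that same-numbered arrays are pairs. The correlation over probes of replicate 2 minus replicate 1 between groups ran from -0.06 (ITGB4 and 1 h) to 0.66 (untreated and 24 h). It was over 0.1 in 8 of 10 pairs of groups, so most groups shared part of the difference between replicate numbers. The main fit leaves that shared part in its error. With the replicate block, 1 gene was called at 1 h (ORC3, limma adjusted p = 0.049), 2 at 6 h (RRM2 and UHRF1), 5 at 6 h against 1 h and 6 at 24 h against 6 h, and the counts over all probes were 427, 1089, 1871 and 2245 in place of 0, 267, 654 and 1165. The array background block called 2 at 6 h, 5 at 6 h against 1 h and 6 at 24 h against 6 h, with 1066, 1690 and 2163 over all probes. Under both blocks the share of the 44 genes called in either direction was below that of all genes in each of these comparisons. The value table shifted the median of all probes by 0.16 at 6 h against untreated cells and 0.15 at 6 h against 1 h, where the 44 genes had medians of 0.13 and 0.03. MCM6, RFC1 and ORC6 lay nearest the detection limit, which bounds how low a level these arrays show.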
